A study of Homo sapiens with 8 samples.

Results

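The genes described here encode 30 nucleoporins and closely associated proteins of the nuclear pore complex. They were chosen by symbol, with earlier results of these data known, and all 30 were found among the 17056 gene rows. All 30 passed the filter of a mean of at least 1 FPKM over the 8 libraries, which 10648 genes passed. FPKM is a count of sequenced fragments scaled by transcript length and by the total of the library.

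The nuclear pore complex is a protein channel through the nuclear envelope, and RNA and most proteins cross between nucleus and cytoplasm through it. A scaffold of outer and inner rings is anchored to the membrane by a membrane ring and lines a central channel of disordered proteins rich in phenylalanine and glycine repeats, which transport receptors bind. Filaments reach from the pore into the cytoplasm, where exported mRNA is released, and a basket built on TPR reaches into the nucleus.

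The series measured RNA in A549, a long-established line of human lung adenocarcinoma cells, with 2 libraries in each of 4 groups. OE libraries came from cells overexpressing AFAP1-AS1, a long non-coding RNA, and Vector libraries from their vector control. ASO libraries came from cells with AFAP1-AS1 knocked down, and ASONC libraries from the negative control of that knockdown. The labels do not spell out ASO, name no dose or time, and do not say whether replicates were separate cultures, so p-values measure only the spread between these libraries. Comparisons were made of OE against Vector, ASO against ASONC, ASONC against Vector and ASO against Vector. Apart from OE against Vector and ASO against ASONC, any 2 of these comparisons share a group of libraries. ASONC values enter both ASO against ASONC and ASONC against Vector, with opposite signs, so those results are not independent.

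Library totals recovered from the FPKM values lay between 33662221 and 37508996 reads, and each nuclear pore gene had between 522 and 10747 reads in each library. AFAP1-AS1 itself was not analysed here, so the group labels have no check on the targeted RNA. The keratins KRT7, KRT8 and KRT18 and the A549 enzymes AKR1B10 and ALDH1A1 were high in every library, while the lung markers NKX2-1 and SFTPB and the epithelial adhesion gene EPCAM were below 1 FPKM in every library. CDH1, the epithelial cadherin, was at 0.841 to 1.78 FPKM in ASO and ASONC and at 3.55 to 4.42 in OE and Vector. Of 9 measured markers of immune, endothelial, fibroblast and basal cells, 7 were below 1 FPKM in every library. The immune marker PTPRC was at 0 in 7 of 8, while CD14, also an immune marker, was at 1.57 to 2.70 FPKM over the 8 libraries. COL1A1, a fibroblast collagen, was at 1.87 to 2.499 FPKM in ASO and ASONC and at 0.463 to 0.591 in OE and Vector, while the endothelial gene VWF was at 0.0477 to 0.126 and at 0.498 to 0.846 in the same groups. The 9 summed to 4.17 and 4.65 FPKM in OE, 4.83 and 5.20 in ASO, 4.82 and 4.90 in ASONC and 3.69 and 3.85 in Vector, and the part of these markers in the results was not tested. The knockdown arm stood apart from the overexpression arm over the whole transcriptome: ASONC against Vector, a comparison of controls, called 68.6% of all genes tested. The labels give no batch, so a difference in handling between the arms cannot be told apart from the groups.

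Promoter sequences are shown for the 2 genes with the lowest and the 2 with the highest fold change in ASONC against Vector, TPR and RANBP2 against NUP37 and NUP42, chosen after their values were seen. RefSeq windows (GRCh38.p14) from 250 bases before to 50 bases after the gene start were matched for 28 of the 30 genes, and the 250 bases before the start are printed 5′ to 3′. Capitals mark matches on either strand to 7 motifs, and motifs that touch or overlap run together. The motifs were NF-Y (CCAAT), ETS (CCGGAA), NRF1 (TGCGCA), SP/KLF (GGGCGG), YY1 (AAGATGGC), CHR (TTTGAA) and CRE (TGACGT). The stretches are chr1:186375254-186375503 on the minus strand for TPR, chr2:108719232-108719481 on the plus strand for RANBP2, chr12:102120115-102120364 on the minus strand for NUP37 and chr7:23181798-23182047 on the plus strand for NUP42.
TPR: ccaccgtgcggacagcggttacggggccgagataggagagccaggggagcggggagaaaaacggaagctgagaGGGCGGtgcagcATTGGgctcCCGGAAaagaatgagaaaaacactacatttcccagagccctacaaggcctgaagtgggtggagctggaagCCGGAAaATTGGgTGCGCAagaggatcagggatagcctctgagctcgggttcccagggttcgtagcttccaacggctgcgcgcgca
RANBP2: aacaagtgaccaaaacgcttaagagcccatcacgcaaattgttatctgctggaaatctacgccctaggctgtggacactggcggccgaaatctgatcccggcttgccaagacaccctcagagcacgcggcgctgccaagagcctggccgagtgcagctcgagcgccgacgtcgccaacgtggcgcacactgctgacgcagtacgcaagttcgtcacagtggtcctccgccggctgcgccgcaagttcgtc
NUP37: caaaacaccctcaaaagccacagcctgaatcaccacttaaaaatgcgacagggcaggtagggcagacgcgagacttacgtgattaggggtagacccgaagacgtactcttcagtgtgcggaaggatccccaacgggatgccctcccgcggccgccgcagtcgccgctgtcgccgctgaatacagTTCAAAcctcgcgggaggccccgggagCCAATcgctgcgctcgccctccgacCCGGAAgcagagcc
NUP42: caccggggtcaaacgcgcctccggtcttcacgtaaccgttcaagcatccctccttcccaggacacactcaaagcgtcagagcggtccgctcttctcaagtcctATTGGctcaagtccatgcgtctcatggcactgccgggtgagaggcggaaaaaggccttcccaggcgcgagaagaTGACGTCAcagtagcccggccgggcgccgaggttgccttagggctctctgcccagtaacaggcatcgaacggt

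The TPR window held NF-Y, ETS, NRF1 and SP/KLF matches and the RANBP2 window held none of the 7 motifs, so the genes with the lowest folds shared no match. The NUP37 window held NF-Y, ETS and CHR matches, and the NUP42 window held an NF-Y match and a palindromic CRE that matches on both strands. Of the 28 genes, 7 had several windows, and only the first listed for each gene was counted here. Across these 28 windows, ETS letters were in 14 of 28 and SP/KLF letters in 12, or 42.9%. Of 8702 tested genes with a window, 32.0% and 72.4% held them. NF-Y letters were in 39.3% of the 28 windows, against 37.0% of the tested genes. The NRF1 letters were in 10.7% of the windows against 14.3% of tested genes, YY1 in 14.3% against 6.1%, CHR in 21.4% against 9.2% and CRE in 17.9% against 12.3%. A match is a description of the letters and not a binding site.

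In Vector libraries, the level per length ranged widely between genes. SEC13, an outer ring protein that also serves in the COPII coat, had the highest level at 66.6 FPKM, followed by AAAS at 40.5 and NUP62 at 34.8 FPKM. POM121 had the lowest at 5.44 FPKM, below NUP42 at 6.93, NUP43 at 7.77 and NUP54 at 8.28 FPKM. TPR stood at 30.2 FPKM and RANBP2 at 17.5 FPKM. Of the 29 pairs of neighbours in this order, 10 had overlapping Vector libraries, among them TPR and NUP93, and NUP107 and NUP37. The plot of levels by library shows every gene in all 4 groups.

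**Figure D1:**
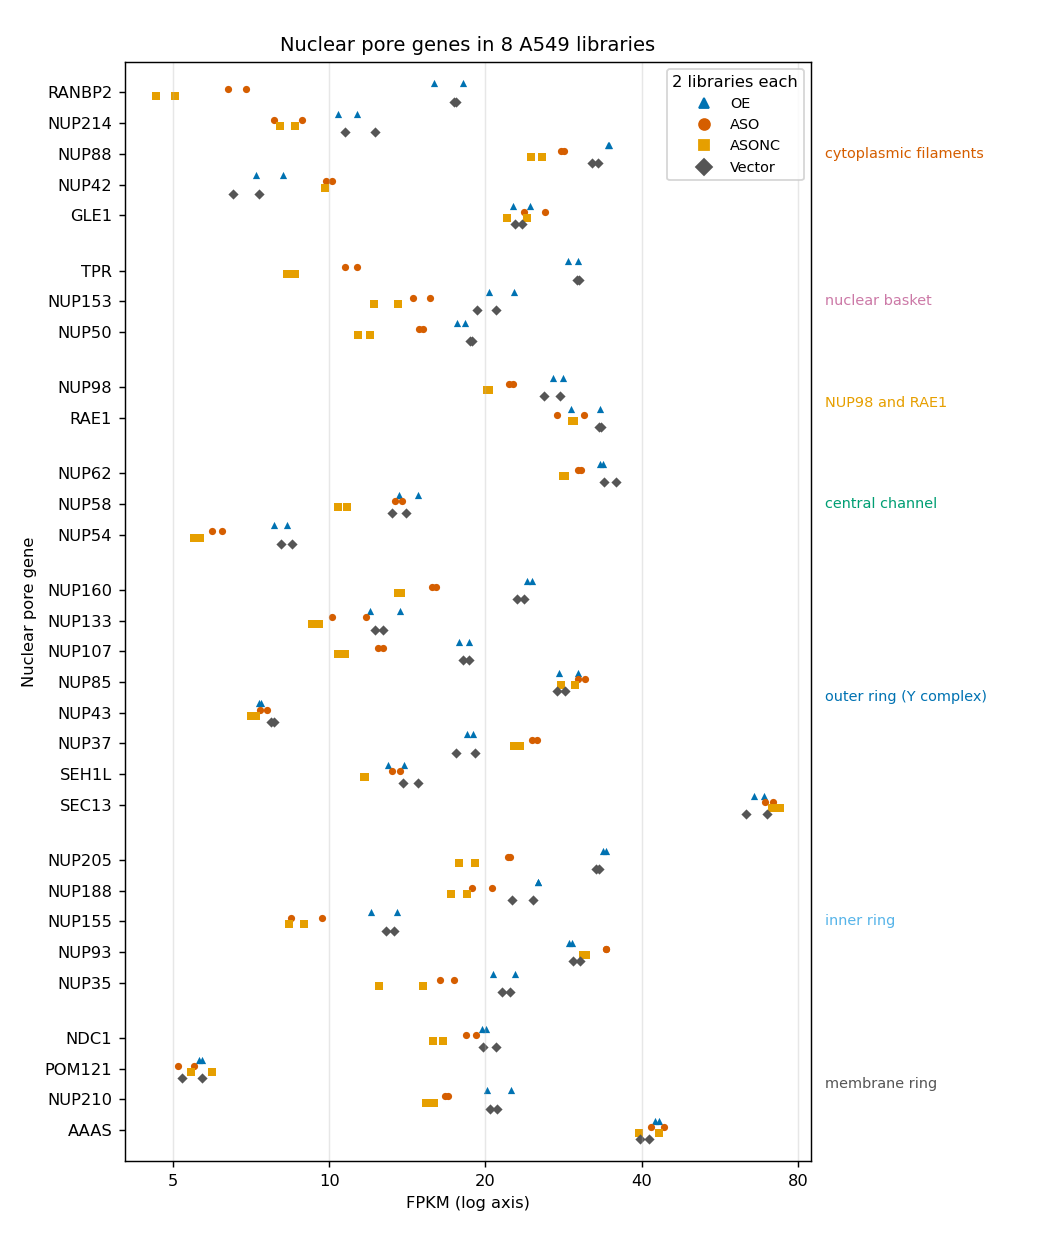
FPKM of the 30 nuclear pore genes on a log axis, by role, with a point for each of the 8 libraries. ASO and ASONC libraries lie far left of OE and Vector libraries for RANBP2 and TPR, right of them for NUP37 and NUP42, and among them for AAAS and POM121.

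OE against Vector asked what AFAP1-AS1 overexpression did. None of the 30 genes was called at an adjusted p below 0.05 by limma, and the smallest adjusted p was 0.797. None had an unadjusted p below 0.05, against 738 of the 10648 genes tested, and voom on the recovered reads called none. Fold changes on the log2(FPKM + 1) scale ran from -0.09 for RAE1 to 0.13 for NUP42. Their median was 0.016, against 0.0024 over all genes, and 16 were above 0, against 5444 of the 10648 genes. Over all genes, 0.0657% were called in either direction, 0.0657% higher and 0% lower. With 2 libraries a group the smallest exact two-sided permutation p for a single gene is 0.333, so calls rest on the spread pooled over genes.

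ASO against ASONC asked what the knockdown did. Of the 30 genes, 11 rose (36.7%) and none fell, against 11.3% higher, 10.9% lower and 22.2% in either direction over all genes. The 11 were RANBP2, TPR, NUP50, NUP58, NUP35, NUP205, NUP107, NUP160, NDC1, SEH1L and NUP88, with log2 fold changes from 0.16 to 0.39. The median over the 30 was 0.14, against 0.016 over all genes. Of the 30 folds 27 were above 0, against 5752 of the 10648 genes tested. An unadjusted p below 0.05 was seen for 16, against 3776 of the 10648 genes. Voom on the recovered reads called 16 higher and none lower, against 15.1% and 12.1% of all genes. Without ASO replicate 2 the count was 6, and without ASONC replicate 2 it was 7, where 4.63% and 5.6% of all genes were called higher. After correction for transcript length and GC content 7 were called, 6 of the 11 and NUP62, and NUP58, NUP107, NUP160, NDC1 and SEH1L were not. With length taken from the FPKM values themselves 5 were called, all higher, against 8.06% of all genes called higher. ASONC libraries also stood apart in the number of genes at 0 FPKM. ASO had 2270 and 2264 such genes, ASONC 1435 and 1341, and OE and Vector between 2205 and 2327. ASONC also had the highest FPKM sums, at 435348.7 and 437923.9, against 426132.5 and 421590.7 in ASO. The part of these differences in the result was not tested.

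ASONC against Vector compared the controls. In ASONC libraries 21 of the 30 genes fell and 3 rose, against 31.8% lower, 36.8% higher and 68.6% in either direction over all genes. The median of the 30 was -0.37, against 0.037 over all genes. ASO against Vector called 17 lower and 3 higher, against 28.8% lower, 34.1% higher and 62.9% in either direction over all genes, with a median of -0.20 against 0.034. TPR and RANBP2 had the lowest values of the 30 in both, and NUP42 and NUP37 the highest. Calls for the smaller folds depended on the scaling: with TPM scaling, 1 gene was higher in ASONC against Vector and 26 were lower, against 22.2% and 47.8% of all genes. That scaling moved the median of all genes to -0.16, so a shift common to all genes bears on these counts. In bulk RNA, fewer cells of a kind and less RNA per cell cannot be told apart.

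**Figure D2:**
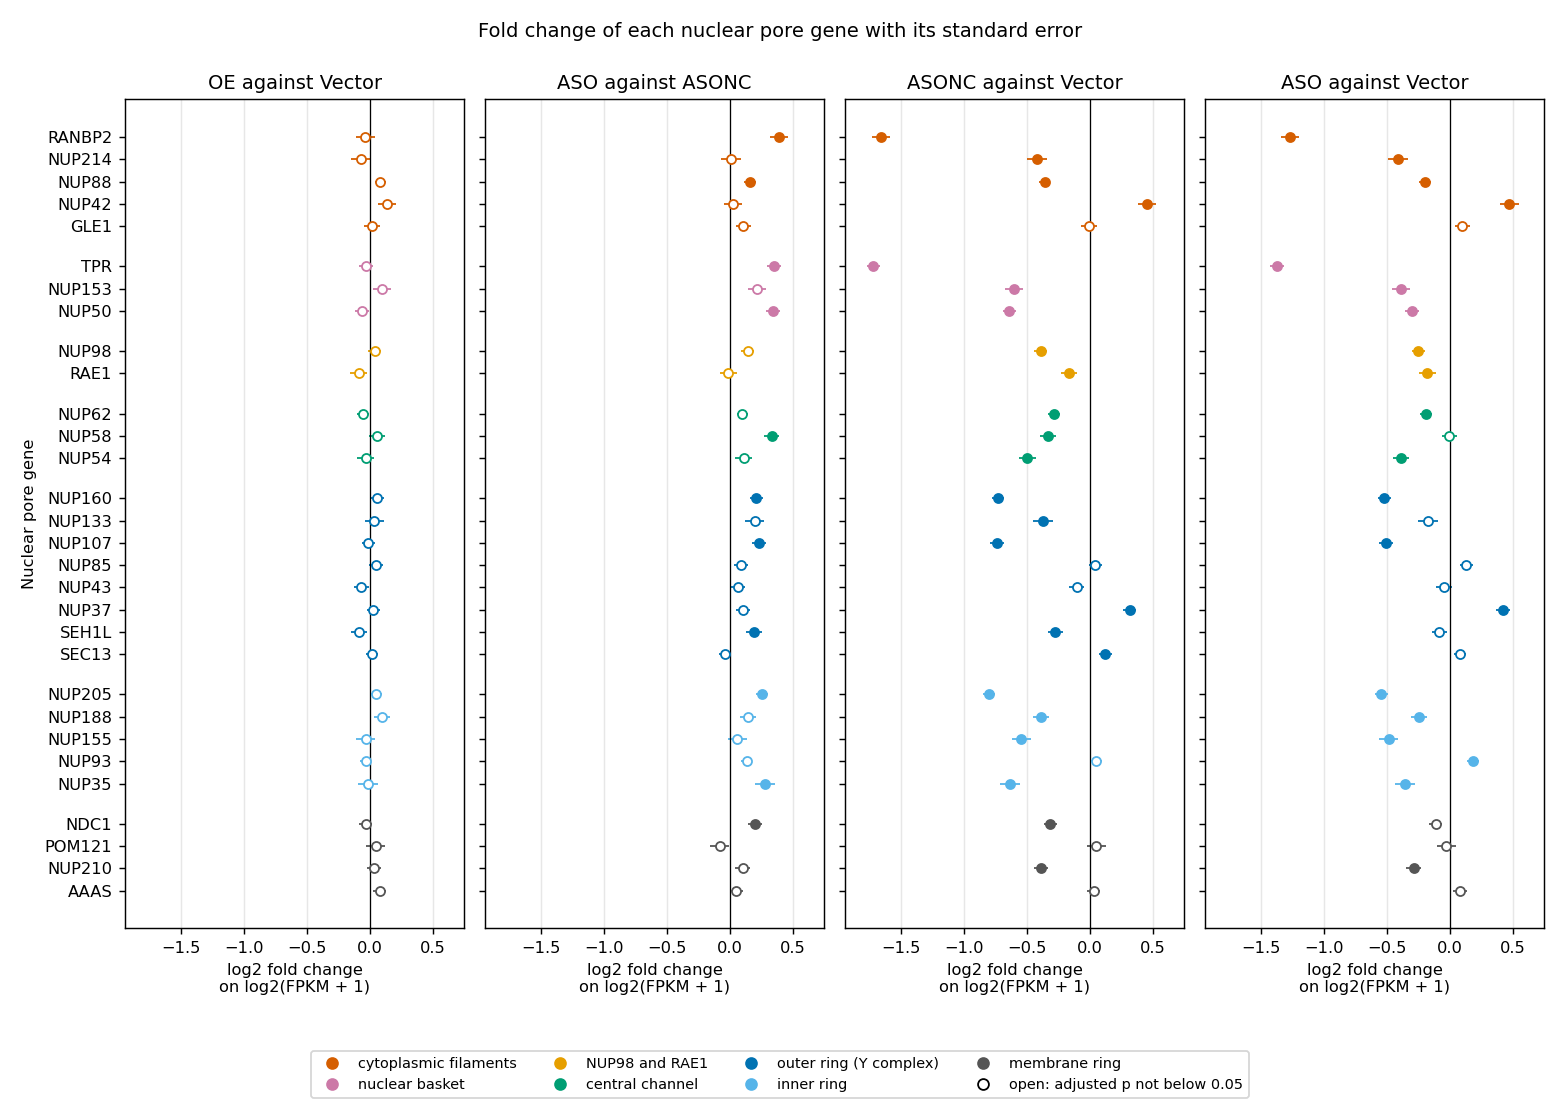
Log2 fold change of each gene with its standard error from limma in the 4 comparisons, coloured by role, with filled points at an adjusted p below 0.05. No point is filled for OE against Vector, and 11 are filled on the positive side for ASO against ASONC. TPR and RANBP2 lie at -1.72 and -1.66 for ASONC against Vector.

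TPR is the coiled-coil protein that forms the nuclear basket, encoded at chr1:186311652-186375693 on the minus strand in GENCODE 29 (GRCh38). TPR had 30.2 and 28.8 FPKM in OE, 11.3 and 10.7 in ASO, 8.60 and 8.28 in ASONC and 30.03 and 30.27 in Vector. The 4 groups fell in 2 tiers: OE and Vector overlapped in range, ASO lay far below both, and ASONC lay below ASO. For ASO against ASONC, TPR rose by 0.35 ± 0.05 (SE, log2, adjusted p = 0.000966). For ASONC against Vector, it fell by 1.72 ± 0.05 (adjusted p = 8.32e-10), to 0.28 of the Vector mean, and 0.0845% of genes tested had a lower fold change. In ASO against Vector it fell by 1.38 (adjusted p = 8.04e-09), to 0.365 of the Vector mean. TPR shares 5.43% of its exonic bases with PRG4 on the other strand, and the strand setting, not given in the sources used here, bears on its count.

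The other basket genes are NUP153 and NUP50. NUP153, which docks the basket to the ring, had 22.7 and 20.3 FPKM in OE, 14.5 and 15.6 in ASO, 13.6 and 12.2 in ASONC and 20.9 and 19.2 in Vector. NUP50, a mobile basket protein that helps release import cargo, had 17.6 and 18.3 FPKM in OE, 14.9 and 15.2 in ASO, 11.97 and 11.37 in ASONC and 18.9 and 18.7 in Vector. For both, the ASO and ASONC libraries did not overlap and lay below all OE and Vector libraries. With ASO set against ASONC, NUP50 rose by 0.34 ± 0.05 (adjusted p = 0.001), and NUP153 was just outside the threshold at 0.21 ± 0.07 (adjusted p = 0.0555). With ASONC set against Vector, NUP50 fell by 0.64 and NUP153 by 0.60, and in ASO against Vector they fell by 0.30 and 0.39. The 3 basket genes took 10.3% and 9.98% of the summed FPKM of the 30 genes in OE, 6.96% and 6.91% in ASO, 6.23% and 5.91% in ASONC and 10.3% and 10.1% in Vector.

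RANBP2, the largest filament protein and a SUMO E3 ligase, is encoded at chr2:108719481-108785811 on the plus strand. RANBP2 had 18.1 and 15.9 FPKM in OE, 6.37 and 6.93 in ASO, 5.05 and 4.64 in ASONC and 17.4 and 17.6 in Vector. The pattern across groups had the same order as that of TPR, with OE around Vector and ASO between ASONC and Vector. RANBP2 rose by 0.39 ± 0.07 in ASO against ASONC (adjusted p = 0.00327), the highest fold of the 30. It fell by 1.66 ± 0.07 in ASONC against Vector (adjusted p = 5.64e-09), to 0.278 of the Vector mean, with 0.113% of genes lower, and by 1.27 in ASO against Vector. RANBP2 has near-identical copies, the RGPD genes, whose counts are uncertain for that reason. Their summed reads were 400 and 422 in OE, 97 and 100 in ASO, 117 and 145 in ASONC and 326 and 241 in Vector, against 8616 and 7885, 3023 and 3245, 2368 and 2248, and 7710 and 8515 reads of RANBP2.

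The remaining filament genes did not move as one. NUP88, a partner of NUP214, had 34.5 and 34.4 FPKM in OE, 27.9 and 28.4 in ASO, 25.7 and 24.4 in ASONC and 32.0 and 33.0 in Vector. NUP214 had 11.3 and 10.4 FPKM in OE, 7.84 and 8.86 in ASO, 8.58 and 8.03 in ASONC and 12.2 and 10.8 in Vector, with ASO and ASONC overlapping. In ASO against ASONC NUP88 rose by 0.16 ± 0.05 (adjusted p = 0.0302), and NUP214 was at 0.0052. Against Vector both fell in ASONC, by 0.36 and 0.42, and in ASO, by 0.20 and 0.42. NUP88 shares 18.7% of its exonic bases with RABEP1 and RPAIN on the other strand.

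NUP42 and GLE1 act together with a helicase to release mRNA at the cytoplasmic face. NUP42 had 8.15 and 7.24 FPKM in OE, 10.1 and 9.86 in ASO, 9.83 and 9.81 in ASONC and 6.53 and 7.33 in Vector, and every ASO and ASONC library was above every OE and Vector library. NUP42 rose by 0.45 ± 0.07 in ASONC against Vector (adjusted p = 0.000167) and by 0.47 in ASO against Vector, and was at 0.022 in ASO against ASONC. GLE1 had 24.3 and 22.6 FPKM in OE, 23.8 and 26.0 in ASO, 22.0 and 24.1 in ASONC and 22.8 and 23.6 in Vector. Both GLE1 libraries of ASO lay above those of Vector, and the groups overlapped in the other comparisons. GLE1 was called in no comparison.

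NUP98 carries repeats that bind transport receptors and holds RAE1, an mRNA export factor, and its gene also encodes the outer ring protein NUP96. NUP98 had 27 and 28.2 FPKM in OE, 22.2 and 22.6 in ASO, 20.1 and 20.4 in ASONC and 27.8 and 26.0 in Vector. RAE1 had 33.3 and 29.2 FPKM in OE, 27.5 and 31.0 in ASO, 29.6 and 29.4 in ASONC and 33.4 and 33.1 in Vector. Neither was called in ASO against ASONC, with folds of 0.14 for NUP98 (adjusted p = 0.0714) and -0.013 for RAE1. In ASONC against Vector NUP98 fell by 0.39 and RAE1 by 0.17, and in ASO against Vector they fell by 0.25 and 0.18.

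NUP62, NUP58 and NUP54 form the repeat-rich trimer of the central channel. NUP62 had 33.2 and 33.7 FPKM in OE, 30.2 and 30.5 in ASO, 28.4 and 28.2 in ASONC and 35.7 and 33.9 in Vector. NUP58 had 14.8 and 13.6 FPKM in OE, 13.4 and 13.8 in ASO, 10.8 and 10.4 in ASONC and 14.1 and 13.2 in Vector. NUP54 had 7.83 and 8.30 FPKM in OE, 5.95 and 6.22 in ASO, 5.50 and 5.64 in ASONC and 8.49 and 8.08 in Vector. NUP58 in ASO overlapped OE and Vector and only ASONC stood below, whereas NUP62 and NUP54 were lower in both ASO and ASONC than in Vector. For ASO against ASONC, NUP58 rose by 0.33 ± 0.06 (adjusted p = 0.00297), and NUP62 and NUP54 were not called at 0.097 and 0.11. After the length and GC correction NUP58 was not called, at 0.16 (adjusted p = 0.0855), and NUP62 was, at 0.16 (adjusted p = 0.0221). For ASONC against Vector, NUP62 fell by 0.29, NUP58 by 0.34 and NUP54 by 0.50. The NUP58 value in that comparison was 0.21 after the length and GC correction, on the other side of 0. NUP62 shares 21.1% of its exonic bases with neighbours that include ATF5 and IL4I1.

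The outer ring is a Y-shaped scaffold complex whose subunits moved in different directions. NUP160, on an arm of the Y, had 24.1 and 24.6 FPKM in OE, 16.1 and 15.8 in ASO, 13.8 and 13.6 in ASONC and 23.7 and 23.0 in Vector. NUP107, on the stem, had 18.6 and 17.8 FPKM in OE, 12.4 and 12.7 in ASO, 10.7 and 10.4 in ASONC and 18.1 and 18.6 in Vector. NUP37, a small subunit that binds NUP160, had 18.4 and 18.9 FPKM in OE, 24.5 and 25.1 in ASO, 22.7 and 23.3 in ASONC and 17.6 and 19.1 in Vector. ASO and ASONC libraries lay below all OE and Vector libraries for NUP160 and NUP107, and above them for NUP37. With ASONC set against Vector, NUP107 fell by 0.74, NUP160 by 0.73, NUP133 by 0.37 and SEH1L by 0.28, while NUP37 rose by 0.32 and SEC13 by 0.12. NUP85 and NUP43 were not called, at 0.043 and -0.11. The length and GC correction ended the calls of NUP133, at -0.098 (adjusted p = 0.263), and SEH1L, at 0.0074 (adjusted p = 0.919). SEC13 lost its call under 11 of 21 alternatives and was below 0 with quantile scaling, TPM scaling and both length and GC corrections, and NUP37 was not called with TPM scaling.

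In ASO against ASONC NUP107 rose by 0.23 ± 0.05 (adjusted p = 0.0105), NUP160 by 0.21 ± 0.05 (adjusted p = 0.0112) and SEH1L by 0.19 ± 0.06 (adjusted p = 0.0407). None of the 3 was called after the length and GC correction, with folds of 0.10 for NUP107 (adjusted p = 0.186), 0.12 for NUP160 (adjusted p = 0.109) and 0.065 for SEH1L (adjusted p = 0.499). SEH1L, shared with the GATOR2 complex of nutrient signalling, had 13.92 and 12.97 FPKM in OE, 13.7 and 13.2 in ASO, 11.7 and 11.7 in ASONC and 14.8 and 13.9 in Vector. NUP133, NUP85, NUP43, NUP37 and SEC13 were not called, with folds between -0.04 and 0.19. In ASO against Vector NUP160 fell by 0.52 and NUP107 by 0.51, and NUP37 rose by 0.42. NUP43 had 7.34 and 7.38 FPKM in OE, 7.37 and 7.59 in ASO, 7.06 and 7.22 in ASONC and 7.81 and 7.72 in Vector. The NUP43 libraries of ASO and OE overlapped, and the gene was called in no comparison. The 8 outer ring genes took 27.7% and 28.5% of the summed FPKM in OE, 31.4% and 31.5% in ASO, 32.7% and 32.4% in ASONC and 27.5% and 28.5% in Vector, of which SEC13 held the most.

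NUP205, NUP188, NUP155, NUP93 and NUP35 build the inner ring around the channel. NUP205 had 34.2 and 33.6 FPKM in OE, 22.1 and 22.3 in ASO, 19.1 and 17.8 in ASONC and 33.1 and 32.6 in Vector. NUP93, the linker that holds the ring together, had 29.03 and 29.37 FPKM in OE, 34.1 and 34.1 in ASO, 30.8 and 31.3 in ASONC and 29.5 and 30.4 in Vector. NUP35, which contacts the membrane, had 20.7 and 22.8 FPKM in OE, 17.4 and 16.4 in ASO, 12.5 and 15.1 in ASONC and 21.5 and 22.3 in Vector. NUP205 and NUP35 were lower in ASO and ASONC than in OE and Vector, while NUP93 was at its highest in ASO. With ASO set against ASONC, NUP35 rose by 0.27 ± 0.08 (adjusted p = 0.0296) and NUP205 by 0.26 ± 0.05 (adjusted p = 0.00357), and NUP93 was just outside the threshold at 0.13 ± 0.04 (adjusted p = 0.0513). In ASONC against Vector NUP205 fell by 0.80, NUP35 by 0.63, NUP155 by 0.55 and NUP188 by 0.39, and NUP93 was not called at 0.051. After the length and GC correction NUP155 was no longer called, at -0.091 (adjusted p = 0.261), and NUP93 was called higher, at 0.35 (adjusted p = 6.71e-05), or 0.10 with the length implied by the FPKM values (adjusted p = 0.049).

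NUP188, a relative of NUP205, had 25.3 and 25.2 FPKM in OE, 18.8 and 20.6 in ASO, 18.4 and 17.2 in ASONC and 24.7 and 22.5 in Vector. NUP155, which binds the membrane side, had 13.51 and 12.04 FPKM in OE, 8.45 and 9.68 in ASO, 8.92 and 8.38 in ASONC and 13.3 and 12.9 in Vector. Neither was called in ASO against ASONC, where NUP155 libraries overlapped and NUP188 libraries did not. In ASO against Vector NUP205 fell by 0.55, NUP155 by 0.49, NUP35 by 0.36 and NUP188 by 0.25, and NUP93 rose by 0.18.

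In the membrane ring, NDC1 and POM121 are transmembrane anchors, NUP210 lies mostly in the lumen of the envelope and AAAS binds NDC1. NDC1 had 19.7 and 20.1 FPKM in OE, 18.3 and 19.2 in ASO, 15.8 and 16.6 in ASONC and 19.8 and 21.0 in Vector. NUP210 had 22.4 and 20.1 FPKM in OE, 16.7 and 16.9 in ASO, 15.3 and 15.9 in ASONC and 21.1 and 20.4 in Vector. In ASO against ASONC NDC1 rose by 0.20 ± 0.05 (adjusted p = 0.0213), and NUP210, at 0.10, was not called. NDC1 was at 0.083 after the length and GC correction (adjusted p = 0.318). For ASONC against Vector, NUP210 fell by 0.39 and NDC1 by 0.32, and in ASO against Vector only NUP210 of the 4 was called, falling by 0.29. AAAS stayed between 39.6 and 44.1 FPKM and POM121 between 5.11 and 5.94 FPKM over the 8 libraries. Neither was called in any comparison before correction or rescaling. AAAS was called lower in ASONC against Vector with TPM scaling, at -0.19 (adjusted p = 0.00714). After the length and GC correction it was called lower there and in ASO against Vector, at -0.28 and -0.14. POM121 has a near-identical copy, POM121C, and shares 18.9% of its exonic bases with other genes, so its count is uncertain.

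Ratios between nuclear pore genes within a library do not depend on the scaling of that library. NUP85 is an outer ring gene that was not called before correction or rescaling. The ratio of TPR to NUP85 was 1.09 and 0.956 in OE, 0.376 and 0.344 in ASO, 0.290 and 0.297 in ASONC and 1.095 and 1.06 in Vector. NUP85 was at 0.043 in ASONC against Vector, so this ratio mainly restates the fold of TPR. NUP85 was called lower there with TPM scaling (-0.17) and after the length and GC correction (-0.13). The ratios were not corrected for length and GC, in which TPR (9708 bases, 40.1%) and NUP85 (2121 bases, 51.4%) differ. NUP205 against NUP93 gave 1.18 and 1.15 in OE, 0.648 and 0.653 in ASO, 0.619 and 0.568 in ASONC and 1.12 and 1.07 in Vector. NUP107 against NUP37 gave 1.01 and 0.940 in OE, 0.507 and 0.506 in ASO, 0.472 and 0.447 in ASONC and 1.03 and 0.975 in Vector. Both ring pairs set the gene with the lowest fold of its ring in ASONC against Vector over the gene with the highest. Their ratios, near 1 in OE and Vector and 0.447 to 0.653 in ASO and ASONC, therefore restate those folds. The ratio of NUP58 to NUP62 was 0.447 and 0.405 in OE, 0.444 and 0.453 in ASO, 0.380 and 0.370 in ASONC and 0.394 and 0.391 in Vector, so ASONC alone lay below Vector by a small margin and ASO lay above both. These ratios are descriptions and were not tested.

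**Figure D3:**
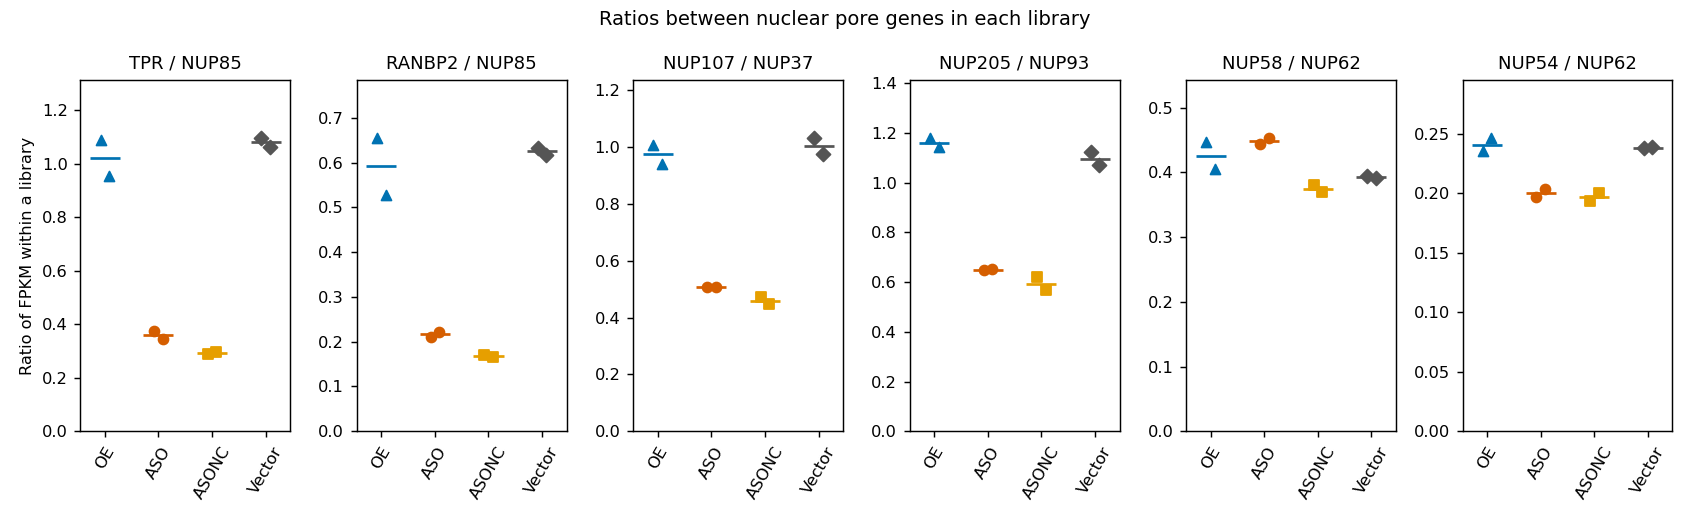
Ratio of FPKM within a library for 6 pairs of nuclear pore genes, with a point per library and a line at the group mean, on linear axes from 0. TPR over NUP85 is about 1 in OE and Vector and below 0.4 in ASO and ASONC, while NUP58 over NUP62 lies between 0.37 and 0.46 in every library.

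Transcript length and base composition moved with these values. TPR has a longest transcript of 9708 bases with 40.1% GC and RANBP2 one of 11711 bases with 39.2% GC, longer than 95.6% and 97.9% of tested genes, whose median was 3394.5 bases and 48.7% GC. Over 10632 tested genes, Spearman's rho of length with the fold was 0.29 in ASO against ASONC and -0.53 in ASONC against Vector, and over the 30 genes it was 0.33 and -0.52. With GC content it was -0.46 and 0.53 over all genes, and -0.62 and 0.35 over the 30. These are descriptions over genes of the same libraries, which are not independent. With a fitted trend on length and GC removed, TPR was lower in ASONC against Vector, at -1.17 ± 0.05, as was RANBP2 at -1.04 ± 0.06. Of all genes, 0.188% and 0.404% were lower. Whether a trend remained among transcripts as long as these was not tested. After that correction 19 of the 30 were lower and 4 higher in ASONC against Vector, against 27.8% and 31.2% of all genes. Calls were lost there by NUP133, SEH1L, NUP155 and NDC1, NUP58 was called higher, and NUP85, SEC13 and AAAS were called lower. The folds of NUP50, NUP153, NUP160 and NUP107 in that comparison were -0.35, -0.31, -0.43 and -0.30 after the correction. In ASO against Vector NUP50, NUP98 and NUP155 lost their calls, at -0.094, -0.073 and -0.15. For ASO against ASONC, the corrected folds were 0.21 for TPR (adjusted p = 0.0189), 0.24 for RANBP2 (adjusted p = 0.0259), 0.25 for NUP50 (adjusted p = 0.00613) and 0.18 for NUP205 (adjusted p = 0.0205). The 7 genes higher there compare with 7.79% of all genes.

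**Figure D4:**
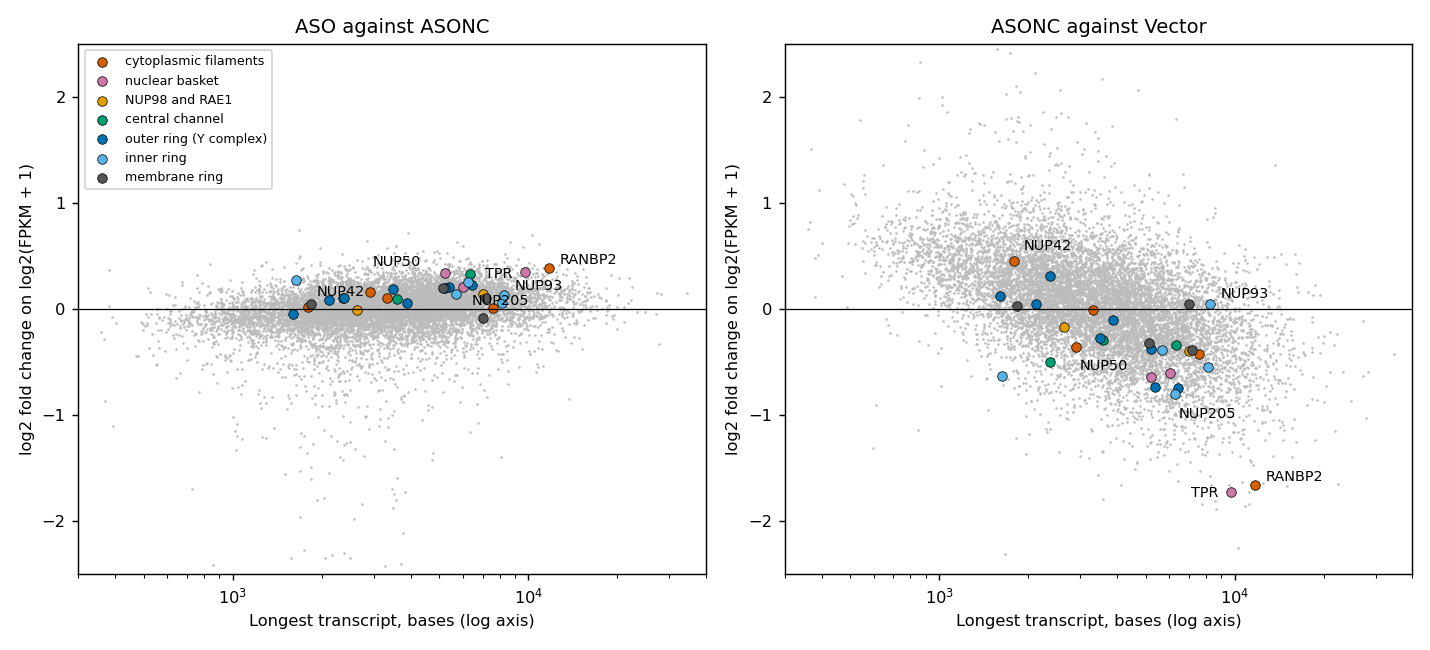
Log2 fold change against length of the longest transcript on a log axis, for all tested genes with a length (grey) and the 30 nuclear pore genes (coloured by role), for ASO against ASONC and ASONC against Vector. A few genes lie outside the axes (6 and 7). TPR and RANBP2 lie at the long end of the cloud, at its upper side for ASO against ASONC and its lower edge for ASONC against Vector.

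Genes that work with the pore were read from lists drawn up by function. Their values are given without the length and GC correction, and the part of that trend in them was not tested. Of 16 tested importins and transportins, 8 rose and none fell in ASO against ASONC, with a median of 0.16. Over all genes 11.3% were higher and 10.9% lower in that comparison. With ASONC set against Vector, 14 fell and 2 rose, with a median of -0.45, against 31.8% lower and 36.8% higher over all genes. TNPO1, the import receptor of many RNA-binding proteins, had 60.8 and 58.8 FPKM in OE, 35.4 and 34.9 in ASO, 31.0 and 29.5 in ASONC and 61.6 and 61.1 in Vector. KPNA2, an adaptor that carries classical import signals, had 289.6 and 296.3 FPKM in OE, 356.8 and 354.6 in ASO, 316.8 and 306.4 in ASONC and 285.0 and 286.9 in Vector. TNPO1 and KPNA2 both rose in ASO against ASONC, by 0.21 and 0.19, while their levels against Vector lay on opposite sides.

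Of 7 exportins, 3 rose and none fell in ASO against ASONC, and 6 fell and none rose in ASONC against Vector. That is 42.9% and 85.7% called, against 22.2% and 68.6% of all genes in either direction. XPO1, the main protein exporter, fell by 0.66 in ASONC against Vector and rose by 0.22 in ASO against ASONC. CSE1L, which returns importin alpha to the cytoplasm, fell by 0.53 and rose by 0.29 in the same comparisons. Of 6 genes of the Ran cycle, which gives transport its direction, none was called in ASO against ASONC, against 22.2% of all genes. Among the 6, 1 had an unadjusted p below 0.05, against 3776 of the 10648 genes tested. With 68.6% of all genes called in ASONC against Vector, 4 of the 6 rose there and 2 fell, and NUTF2, the carrier of RAN into the nucleus, rose by 0.42.

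Of 19 mRNA export factors, 1 rose and 3 fell in ASO against ASONC, and 8 rose and 6 fell in ASONC against Vector. Those shares, 21.1% and 73.7%, were close to the 22.2% and 68.6% of all genes. Members of a single complex diverged there: THOC2, the scaffold of the THO complex, fell by 1.27 and its partner THOC6 rose by 1.19. With ASO set against ASONC, PCID2, a part of the TREX-2 complex at the basket, fell by 0.80 and THOC6 by 0.59. Of 7 further pore proteins, 2 fell and none rose in ASONC against Vector, and 1 rose and none fell in ASO against ASONC. Those shares, 28.6% and 14.3%, were below the 68.6% and 22.2% of all genes. AHCTF1, which recruits the outer ring to chromatin after mitosis, fell by 1.36 in ASONC against Vector and rose by 0.28 in ASO against ASONC. AHCTF1 had 17.3 and 15.6 FPKM in OE, 7.71 and 7.38 in ASO, 6.36 and 5.76 in ASONC and 17.4 and 16.9 in Vector, so its groups stood in the same order as those of TPR and RANBP2.

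Of 16 lamina and envelope genes, 5 rose and 3 fell in ASO against ASONC, where LBR, the lamin B receptor, rose by 0.31 and TMPO by 0.27. In ASONC against Vector 6 rose and 5 fell, or 68.8% against 68.6% of all genes, and in ASO against ASONC 50% were called against 22.2%. The giant linker proteins SYNE2 and SYNE1 fell by 1.15 and 1.03 in ASONC against Vector. With ASO set against ASONC they parted. SYNE2 rose by 0.29 (adjusted p = 0.0499), and SYNE1, among the 3 that fell, did so by 0.33 (adjusted p = 0.00675). Of 12 genes of the COPII coat and the GATOR2 complex, where SEC13 and SEH1L also serve, 2 rose and none fell in ASO against ASONC, and 2 rose and 3 fell in ASONC against Vector. The shares called, 16.7% and 41.7%, were below those of all genes. SEC31A, the COPII partner of SEC13, fell by 0.42 in ASONC against Vector, where SEC13 was at 0.12. In OE against Vector limma called no gene of these lists, and at most 2 genes of a list had an unadjusted p below 0.05.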

How the data were processed

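The authors deposited FPKM values, a column per library and a gene symbol per row, per the file header. HISAT2, HTSeq, featureCounts and R 3.2.0 are listed in the submitters' processing notes beside build hg38 (GRCh38), with no role for each. Not given in the sources used here were the annotation, the filters and the strand setting. FPKM depends on the length assumed for a gene and on the total of a library, so a large change in some genes moves others.

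Reads were recovered from the FPKM steps within a tolerance of 0.02 reads for all 17056 genes, 100.0% of them whole. The 8 libraries had 33662221 to 37508996 reads. Replicates differed by more than sampling noise, with a chi-square per degree of freedom of 5.11 to 5.88, and each was kept as a sample.

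Genes were tested with limma 3.58.1 under R 4.3.3 (lmFit and contrasts.fit, then eBayes with trend, two-sided). Values were log2(FPKM + 1) of the 10648 genes whose mean reached 1 FPKM. All 4 groups entered a single fit with 4 residual degrees of freedom. P-values were adjusted by Benjamini-Hochberg over all genes tested and called below 0.05. Fold changes understate changes of low genes. A rise or fall in the text is a call. The script was tested on simulated data. Transcript lengths, positions and shared exonic bases came from GENCODE 29, and promoters from RefSeq (GRCh38.p14). Tables and figures were made with Python 3.11.15, pandas 2.3.3 and matplotlib 3.10.9.

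All 30 genes are accounted for. Values in every library are given for TPR, RANBP2 and, per role and comparison, up to 3 genes with the smallest p. AAAS and POM121, which meet that rule, are given as ranges only. In each pathway list up to 2 such genes in each comparison were eligible to be named. The members and lists were chosen with earlier results of these data known. The alternatives were 20 planned ones and 1 added after seeing the data.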

Additional observations from a re-analysis of the deposited data

How the results depend on the processing

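Of the 30 genes, TPR, RANBP2, NUP50 and NUP205 were higher in ASO against ASONC under all 21 alternatives, and TPR and RANBP2 were lower in ASONC against Vector under all 21, between -2.001 and -1.17 and between -1.98 and -1.04. In ASO against ASONC the count of higher genes was 11, 7 after the length and GC correction (6 of the 11 and NUP62) and 5 with the gene length implied by the FPKM values, an alternative chosen after seeing the data. In the same order, 11.3%, 7.79% and 8.06% of all genes were higher. Leaving out a library each gave between 6 (without ASO replicate 2) and 12. In ASONC against Vector 1 gene was higher with TPM scaling, against 22.2% of all genes. In ASO against Vector 5 were higher with the implied length, against 30.1% of all genes. With the replicate number as a block the count higher in ASO against ASONC was 12, against 11% of all genes. Same-numbered libraries shared only a number, with correlations of their deviations between -0.06 and 0.06.

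Directions turned for several genes, among them the called falls of NUP58, NDC1 and SEH1L. In ASONC against Vector SEC13 was -0.022 with quantile scaling. With TPM scaling SEC13 was -0.10, NUP85 -0.17, NUP93 -0.17 and AAAS -0.19. After the length and GC correction NUP58 was 0.21, NUP85 -0.13, SEH1L 0.0074, SEC13 -0.20, NDC1 0.047 and AAAS -0.28, and with the implied length NUP58 was 0.087, NUP43 0.25, SEH1L 0.033, SEC13 -0.12 and AAAS -0.31. In ASO against Vector the length and GC correction gave NUP58 0.36, SEC13 -0.15 and AAAS -0.14, and the implied length gave NUP58 0.26, NUP43 0.21 and AAAS -0.16. The cause was not tested. TPM scaling moved the median of all genes in ASONC against Vector to -0.16 and in ASO against Vector to -0.13, against 0.037 and 0.034, and the share of calls that were higher to 31.7% and 31.9%, against 53.6% and 54.2%. In ASO against ASONC TPM scaling gave a share of 66.8% and median-of-ratios scaling 62.1%, against 50.8%. With 2 libraries a group, folds of about 3 standard errors could miss the threshold, as for NUP153 and NUP93 in ASO against ASONC.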
